A study of Mus musculus with 4 samples.

Results

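The miR-15/16 seed family was followed through 6 mature miRNAs, mmu-miR-15a-5p, mmu-miR-15b-5p, mmu-miR-16-5p, mmu-miR-195a-5p, mmu-miR-322-5p and mmu-miR-497a-5p (written below without the species prefix), out of 659 miRNA names that the eCLIP-seq libraries held between them. The members were chosen by name, as miRNAs of 1 seed family, with earlier results of these data known. A family site was any Ago2 peak with a chimeric read of at least 1 member. By that rule 2590 of 20754 peaks were family sites in the control-injected plantaris and 2600 of 21872 in the mimic-injected plantaris. Chimeric eCLIP-seq crosslinks Ago2, the Argonaute protein that holds the miRNA on its target, pulls it down with an antibody, and ligates the miRNA to the target RNA fragment beneath it, so that 1 read names the miRNA and the place it was bound.

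Both libraries came from plantaris muscle of male C57BL/6J mice aged 5 months that had undergone 10 days of mechanical overload (MOV), which makes the muscle grow by removing the work of its synergists. The control library (MOV_Control) came from a plantaris that had received a lentivirus with a scrambled control, and the mimic library (MOV_Mimic) from a plantaris that had received a lentivirus for a miR-1 mimic. Both viruses had a mouse CMV promoter, which is not limited to muscle fibres, and a TurboGFP reporter. Each group had 1 library, and the 2 input libraries were not analysed here. The control-injected library held 232408 chimeric reads and the mimic-injected library 259207, a ratio of 1.12 that applies to all miRNAs together. Conditions could not be tested against each other with 1 library a group, and every interval below is a 95% interval that covers counting error only. Whole muscle holds fibres, fibroblasts, macrophages, vessels and nerve, so that fewer cells of a type and less RNA per cell cannot be told apart.

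miRNAs guide Ago2 to RNAs that pair with the seed, the bases near the 5′ end of the miRNA, and Ago2 with its partners then slows translation of the RNA or shortens its life. miRNAs with the same seed can bind the same sites. The miR-15/16 family is known for holding back cell division and survival genes, and miR-195 and miR-322 are known in heart and skeletal muscle for their part in cell cycle exit and in differentiation of muscle precursors.

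The 6 mature sequences are shown because their common seed is what makes them 1 family. They are RefSeq entries on GRCm38.p6, written 5′ to 3′ with the seed, bases 2 to 8, in capitals, and miR-103-3p follows for contrast because its seed is the same run of letters moved by 1 base.
mmu-miR-15a-5p: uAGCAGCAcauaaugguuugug
mmu-miR-15b-5p: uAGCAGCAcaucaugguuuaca
mmu-miR-16-5p: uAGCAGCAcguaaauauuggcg
mmu-miR-195a-5p: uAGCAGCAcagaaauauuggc
mmu-miR-322-5p: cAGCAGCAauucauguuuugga
mmu-miR-497a-5p: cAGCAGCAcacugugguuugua
mmu-miR-103-3p: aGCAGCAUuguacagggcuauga

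All 6 members matched a RefSeq entry, and 10 mature mouse names in RefSeq had this seed. The members came from 4 stretches of the genome. miR-15a-5p (chr14:61632075-61632096, minus strand) and 1 copy of miR-16-5p (chr14:61631936-61631957, minus strand) lay within the long noncoding RNA gene Dleu2. miR-15b-5p (chr3:69009775-69009796, plus strand) and the other copy of miR-16-5p (chr3:69009918-69009939, plus strand) lay within Smc4, a condensin gene. miR-497a-5p (chr11:70234730-70234751, plus strand) and miR-195a-5p (chr11:70235062-70235082, plus strand) were neighbours, and miR-322-5p (chrX:53054306-53054327, minus strand) lay within the transcript C430049B03Rik. Outside the seed the members differed widely. miR-16-5p and miR-195a-5p had 2 mismatches in 21 compared bases, whereas miR-16-5p and miR-497a-5p had 11 in 22. Base 1 set miR-322-5p and miR-497a-5p apart from the other members, and 9 of the first 21 bases were identical in all 6.

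miR-16-5p held the largest part of the family's reads. It had 3133 chimeric reads in the control-injected plantaris (Poisson interval 3024 to 3245) and 3092 in the mimic-injected plantaris (2984 to 3203), which was 47.9% and 46.9% of the family. By summed reads it was number 19 of the 560 miRNAs named in each library. miR-15a-5p came next with 1293 reads in each library, 19.8% and 19.6% of the family. These were the only members above 15.1% of the family's reads in either library.

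miR-195a-5p had 893 reads in control-injected muscle (835 to 954) and 993 in mimic-injected muscle (932 to 1057). miR-497a-5p, its neighbour on chromosome 11, had 467 and 463 reads. miR-15b-5p had 420.0 reads in control-injected and 442 in mimic-injected muscle, and miR-322-5p had 330.2 and 307. The order of the 6 members was the same in both libraries. Within it, the neighbours miR-497a-5p and miR-15b-5p had overlapping intervals in each library, 426 to 511 against 381 to 462 in the control and 422 to 507 against 402 to 485 in the mimic.

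**Figure D1:**
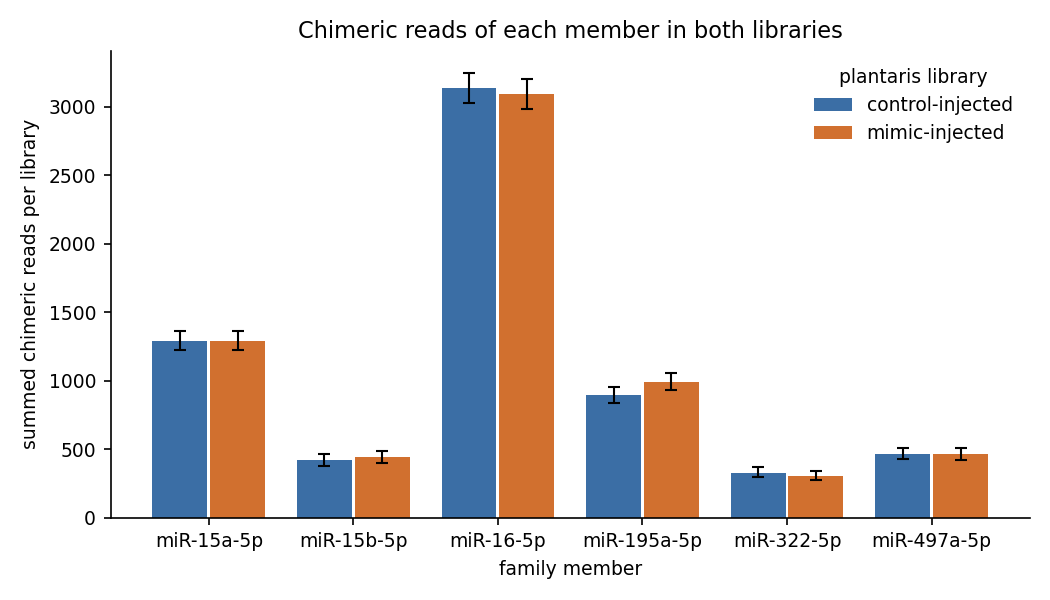
Bars give the chimeric reads summed over all sites of each of the 6 members in the control- and the mimic-injected plantaris, 1 library each, with 95% Poisson intervals that cover counting error only. miR-16-5p stands highest with 3133 and 3092 reads, and miR-322-5p lowest with 330.2 and 307.

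Summed over the members, the family had 6536 reads in control-injected muscle (6378 to 6696) and 6589 in mimic-injected muscle (6431 to 6750). The ratio of mimic to control was 1.01 (exact conditional interval 0.974 to 1.04). As a share of all chimeric reads the family held 2.81% in control-injected muscle (Clopper-Pearson interval 2.75 to 2.88%) and 2.54% in mimic-injected muscle (2.48 to 2.60%), and after division by library totals the ratio was 0.904 (0.873 to 0.935). The read number was therefore nearly equal while the share was lower in the mimic library, and the 2 scales place the ratio on opposite sides of 1. Of 142 other miRNAs with at least 50 lines in each library, a line being 1 miRNA in 1 peak, 93 had a higher ratio than the family, with a median of 1.07 and a 5th to 95th percentile of 0.761 to 1.47. The family's ratio lay well inside that range.

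The members were close to each other on this measure. The unscaled ratio ran from 0.929 for miR-322-5p (0.794 to 1.09) to 1.11 for miR-195a-5p (1.01 to 1.22), and miR-16-5p lay at 0.987 (0.939 to 1.04). After division by library totals miR-195a-5p was at 0.997 (0.910 to 1.09), miR-16-5p at 0.885 (0.842 to 0.930), miR-15a-5p at 0.897 (0.829 to 0.969) and miR-322-5p at 0.833 (0.712 to 0.977). miR-15b-5p at 0.943 (0.824 to 1.08) and miR-497a-5p at 0.889 (0.780 to 1.01) had intervals that held 1. A change of at least 2-fold after division by library totals was found for 0 of the 6 members. Among the 148 miRNAs with at least 50 lines in each library, members included, 0.676% were that much higher and 0.676% that much lower.

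Most family sites rested on little signal. The median site had 1 family read in each library, and 45.6% of sites in control-injected and 48.3% in mimic-injected muscle had less than 1, since the deposited values are fractions of reads. Sites of at least 3 family reads numbered 432 in control-injected and 470 in mimic-injected muscle, and held 66.2% and 68.7% of the family's reads. Sites of at least 10 reads numbered 76 and 84, and held 39.99% and 40.6%. A few strong sites thus carried a large part of the signal.

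Sites with more family reads held reads of more members. Strong sites were defined by the summed reads of these same members, so read number alone favours more members there. Over all family sites, 58.2% in control-injected and 58.5% in mimic-injected muscle had reads of 1 member alone, and 36 and 35 sites had all 6. At sites of at least 10 family reads the median number of members was 5 in each library, and miR-16-5p was the member with the most reads at 85.5% of them in control-injected and 76.2% in mimic-injected muscle. Sites where miR-16-5p was found held 72.7% of the miR-15a-5p reads in control-injected and 74.7% in mimic-injected muscle, and 78.0% and 78.3% of those of miR-195a-5p. For miR-322-5p the shares were 69.9% and 73.7%, and for miR-497a-5p 72.6% and 70.9%. How a read was given to 1 of several members with nearly the same letters was not stated, so reads of miR-16-5p and miR-195a-5p may be less well told apart than those of more distant members.

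The family sites recurred between the libraries where they were strong. Of the 2590 control sites 39.0% (37.2 to 40.9%) overlapped a mimic site on the same strand by at least 1 nt, and 38.4% of the mimic sites overlapped a control site. The share was 23.4% for control sites under 1 family read, 39.6% for those of 1 to under 3, 77.0% for those of 3 to under 10, and 97.4% (90.8 to 99.7%, 74 of 76) for those of 10 or more. The same overlap for peaks of other miRNAs was not computed, so whether these shares are particular to the family is not known. The control sites of 10 or more reads with no family site in the mimic lay in Cltc, the clathrin heavy chain gene, with 11.95 reads, and in Cox8a, a cytochrome oxidase subunit gene, with 12.6 reads. The only such mimic site lay in Anxa5, the annexin A5 gene, with 13.5 reads. These 3 were named after their values were seen.

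At 963 pairs of sites that were each other's largest overlap, the median log2 ratio of mimic to control family reads was 0.03 (order-statistic interval 0 to 0.09), and its SD over sites was 1.77. For 246 pairs with at least 3 family reads in each library the median was 0.01 and the SD 0.66, and for 51 pairs with at least 10 the SD was 0.48. The scatter thus narrowed with depth, and the centre stayed near equal reads on the unscaled measure. Division by library totals moved the median of the 963 pairs to −0.13. The unscaled median over the shared lines of all other miRNAs was 0.05.

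**Figure D2:**
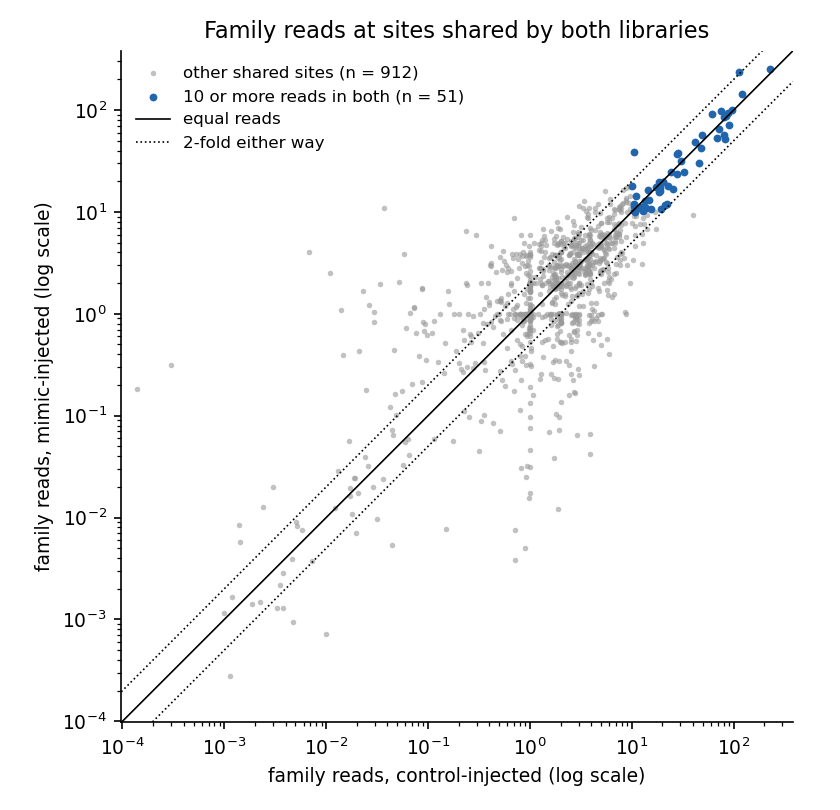
Each point is 1 site shared by the libraries, with its summed family reads in the control-injected plantaris (x axis) and in the mimic-injected plantaris (y axis), both on log scales. The 51 sites with at least 10 reads in each library lie around the line of equal reads, mostly within the dotted 2-fold lines, and the sites under 1 read scatter widely.

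Single lines with at least 3 reads in each library were compared after division by library totals. Of 183 such lines of members, 9 (4.92%) were at least 2-fold higher in the mimic and 23 (12.6%) at least 2-fold lower. Over the 6308 lines of all miRNAs the shares were 6.77% and 8.61%. The members' share was lower than the background share in the higher direction and above it in the lower direction. No interval was computed for these shares, and the lines share their 2 libraries, so the counts do not set the members apart. The median unscaled log2 ratio of these lines was 0.02 for miR-16-5p over 95 lines (−0.22 to 0.18), −0.01 for miR-15a-5p over 32 (−0.30 to 0.28) and 0.27 for miR-195a-5p over 25 (−0.37 to 0.64).

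Target genes were assigned by the overlap of a family site with a RefSeq gene span on GRCm38.p6. The family had 1684 target genes in control-injected and 1706 in mimic-injected muscle, and 903 were found in both, which was 53.6% of the first number and 52.9% of the second. With a site of at least 3 family reads there were 372 and 394 genes, 217 of them in both. How far the target genes of other miRNAs recurred was not computed. Protein-coding genes took 82.0% of family reads in control-injected and 82.4% in mimic-injected muscle, against 78.2% and 79.4% of the reads of all other miRNAs. Long noncoding RNA genes took 6.85% and 6.64% of family reads against 2.59% and 2.79%. The mitochondrial chromosome was the opposite case, with 0.982% and 1.07% of family reads against 14.02% and 13.7% of the reads of other miRNAs.

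The 10 genes with the most family reads held 26.8% of them in control-injected and 26.5% in mimic-injected muscle. Read numbers per gene were not divided by gene length, and they describe how often a gene was caught with the family and not how much of its RNA was present. The gene with the most was Rn18s-rs5 (chr17:39846354-39848202), an annotated copy of the ribosomal RNA unit, with 599 family reads in control-injected and 589 in mimic-injected muscle. Ribosomal RNA genes are repeated in the genome and near-identical, so the source of these reads is uncertain. All miRNAs together had many reads there, and the family's share of them was 3.84% (3.55 to 4.16%) and 3.55% (3.27 to 3.84%).

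H19 (chr7:142575530-142578146, minus strand), an imprinted long noncoding RNA that is abundant in growing muscle, had 290.3 family reads in control-injected and 295 in mimic-injected muscle. Most lay in a stretch of the transcript at chr7:142576409-142576476, with 231 reads in control-injected and 242 in mimic-injected muscle when adjoining peaks were joined. The control library split that stretch into more peaks than the mimic, and the site pairing therefore matched a control peak of 112 reads with a mimic peak of 239. The joined region shows nearly equal reads in the 2 libraries. The other long noncoding RNA among the leading genes was Malat1 (chr19:5795690-5802672, minus strand), a nuclear RNA, with 110.0 and 117 family reads, 17.3% and 15.98% of all its chimeric reads.

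Hspa8 (chr9:40801276-40805202, plus strand) encodes the constitutive heat shock cognate chaperone Hsc70. It had 184 family reads in control-injected and 184 in mimic-injected muscle, and the family made up 75.6% (69.5 to 80.7%) and 78.6% (72.8 to 83.7%) of all its chimeric reads. Of these, 164 and 174 lay in the region chr9:40802810-40802893. Among the genes with the most family reads it was the only one where the family held most of the chimeric reads. Vim, which encodes the intermediate filament vimentin, followed with 90.3 and 86.1 family reads, 40.8% (34.2 to 47.5%) and 35.996% (29.9 to 42.4%) of its total.

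Genes of the extracellular matrix stood among the leading genes. Col1a1 and Col1a2, the chains of type I collagen, had 110.2 and 103 family reads in the control and 90.4 and 85.2 in the mimic. Postn, the matricellular protein periostin, had 98.2 and 95.4. Their ratios of mimic to control were 0.820 (0.612 to 1.09) for Col1a1, 0.824 (0.612 to 1.11) for Col1a2 and 0.972 (0.723 to 1.30) for Postn, and all 3 intervals held 1. The Postn site at chr3:54361134-54361261 held 88.8 of the control reads, and the family made up 49.7% of all chimeric reads there, against 62.8% in the mimic.

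Aldoa, the muscle aldolase of glycolysis, had 86.1 family reads in control-injected and 106.9 in mimic-injected muscle, with a ratio of 1.24 (0.928 to 1.67). Gnas, the stimulatory G protein alpha subunit, had 76.4 and 98.3, with a ratio of 1.29 (0.946 to 1.76). Ckm, the muscle creatine kinase, had 82.4 and 52.5, with a ratio of 0.638 (0.449 to 0.924). Ckm went against the rest of its own reads, since the reads of all other miRNAs on Ckm had a ratio of 1.24. With nearly all of its family reads in 1 site (81.7 and 51.6 at chr7:19416763-19416892) and 1 library in each group, this is a difference between these libraries.

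Of 57 genes with at least 10 family reads in each library, the interval of the unscaled ratio left out 1 for 3 genes and left out the ratio of all chimeric reads for 8. The 3 were Ckm, Rtn4 and Ttn, and Ttn had a ratio of 1.62 (1.11 to 2.38) with 1.34 for the reads of all other miRNAs on it. The 8 were Ckm, Col1a1, Col1a2, Fn1, Neat1, Rn18s-rs5, Rtn4 and Sdcbp, and both sets were named after their values were seen. The same shares over the genes of other miRNAs were not computed, so neither count sets the family apart. Rtn4, which encodes the endoplasmic reticulum protein reticulon 4, stood alone among the 8 in the upward direction, with 12.3 family reads in control-injected and 29.6 in mimic-injected muscle (2.41, 1.24 to 5.36). Sdcbp, the syndecan-binding protein syntenin, had 22.8 and 11.1 (0.488, 0.210 to 1.02). Fn1, fibronectin, had 78.9 and 61.0 (0.774, 0.544 to 1.09).

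The shared sites with a mean of at least 10 family reads were also ranked by their ratio. The largest falls were in Rn18s-rs5 (40.2 to 9.43 reads), Igf2, the insulin-like growth factor 2 gene (17.1 to 6.84, ratio 0.399, 0.144 to 1.05) and Spred1, a gene of a Ras pathway inhibitor (14.1 to 6.78, ratio 0.481, 0.171 to 1.32). The largest rises were in Bgn, the proteoglycan biglycan (10.6 to 38.8, ratio 3.67, 1.78 to 7.68), Cdk17, a cyclin-dependent kinase gene (5.45 to 16.1, ratio 2.95, 1.12 to 11.2), and the split H19 peak given above. Split peaks bear on this ranking. When adjoining peaks were joined, the Bgn region had 40.9 family reads in control-injected and 38.8 in mimic-injected muscle, and the Rn18s-rs5 region had 40.2 and 32.0, so that neither stood apart. Joining could also widen a difference. Another Rn18s-rs5 region, chr17:39846850-39846936, had 127 and 73.6 family reads when joined, whereas its paired site had 90.9 and 71.6.

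At many of the sites with more family reads, the family held most of the chimeric reads of the peak. These sites were kept by a minimum of family reads, which favours a high family share. The same share for other miRNAs at sites kept by their own reads was not computed, so it does not set the family apart. Over the 432 control sites of at least 3 family reads, the median share of all chimeric reads of the peak that belonged to the family was 64.4% (interquartile range 34.6 to 85.2%), and it was 65.4% over the 470 mimic sites. The share was over 50% at 282 of the 432 and at 307 of the 470. It repeated well between the libraries, with a Spearman correlation of 0.90 across the 51 sites of at least 10 family reads in each, a description over sites that share their 2 libraries. At 26 of the 51 the family held over 50% in both libraries.

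The highest share, averaged over the libraries, was found in C1qc, a chain of the complement component C1q made by macrophages. Its site at chr4:136892448-136892563 on the minus strand had 41.5 family reads of 44.5 in the control, or 93.3% (81.7 to 98.6%), and 48.8 of 53.0 in the mimic, or 92.1% (81.8 to 97.9%). C1qb, another chain of C1q, had 25.5 and 16.8 family reads, 74.3% and 87.0% of all its chimeric reads. Septin2, a cytoskeletal GTPase gene, had 32.3 and 24.6 family reads at chr1:93508274-93508374, 86.7% (71.2 to 95.5%) and 83.2% (65.3 to 94.4%) of the site.

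Plagl1, which encodes an imprinted zinc finger protein that restrains growth, had 22.6 and 17.9 family reads at chr10:13129384-13129511, 83.7% and 85.0% of the site. Tppp3, a tubulin polymerization gene, had 20.04 and 19.7, with 88.7% and 79.7%. Both were small but held mostly by the family in each library.

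Further sites among the 10 with the highest share had between 10.1 and 13.8 family reads in each library. They lay in Smad7, the inhibitory Smad of the TGF-beta pathway (88.6% in control-injected and 91.0% in mimic-injected muscle), Sdcbp (82.5% and 99.8%), Chd4, a chromatin remodeller of the NuRD complex (100% and 78.7%), Lrrc32, the gene of the latent TGF-beta carrier GARP (81.4% and 92.6%), and Spred1 at a site other than the one above (70.3% and 100%). At this depth the intervals are wide, as in Smad7 with 61.5 to 99.8% in the control and 58.7 to 99.8% in the mimic.

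The make-up of the family varied from gene to gene. On Gnas miR-16-5p held 92.2% of the family's reads in control-injected and 88.4% in mimic-injected muscle, and on Ckm 79.8% and 77.1%, against 47.9% and 46.9% over the libraries. On Hspa8 it held 40.9% and 42.7%, with miR-15a-5p at 28.6% and 28.5%. On Malat1 miR-15a-5p held 26.7% and 34.1%, and miR-16-5p 37.1% and 28.5%. Aldoa was the leading gene with the most miR-497a-5p, 16.1% and 18.8% of its family reads.

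Members other than miR-16-5p had the most reads at some sites. At the Septin2 site miR-15a-5p held 66.0% of the family's reads in control-injected and 68.9% in mimic-injected muscle, and miR-16-5p 3.09% and 8.11%. At the Plagl1 site miR-322-5p held 48.2% and 38.8%, and miR-16-5p 38.5% and 36.4%, which was 10.9 against 8.71 reads in the control and 6.94 against 6.50 in the mimic, too few to order them. At the C1qc site the reads belonged to miR-16-5p, miR-15a-5p and miR-15b-5p, and the other 3 members had no line there in either library. The Spred1 site with the high family share was led by miR-15a-5p in the control (43.5%) and by miR-497a-5p in the mimic (44.3%), on 10.6 and 11.9 family reads.

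Across the 51 sites of at least 10 reads in each library the members' shares repeated less well than the share of the family as a whole. The Spearman correlation of control with mimic shares was 0.54 for miR-322-5p, 0.39 for miR-16-5p, 0.37 for miR-15a-5p, 0.34 for miR-195a-5p, 0.31 for miR-15b-5p and 0.31 for miR-497a-5p. The median share of miR-16-5p over these sites was 50.7% in the control, with a range of 3.09 to 93.3%, and 46.3% in the mimic, with a range that reached 90.2%. The points share their libraries and rest on few reads per member.

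**Figure D3:**
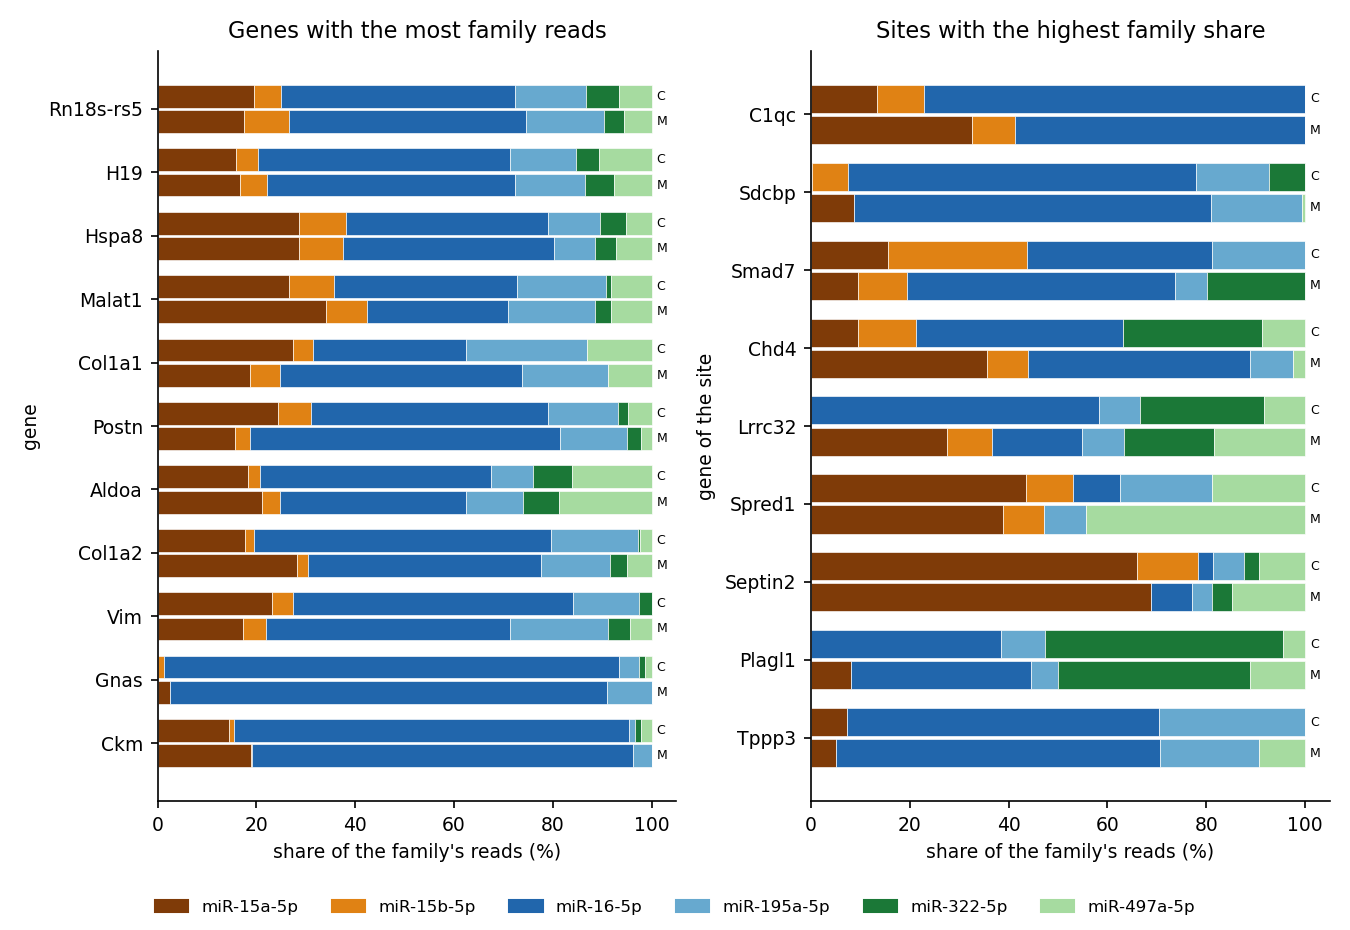
Stacked bars give the share (%) of each of the 6 members in the family's reads, for the genes with the most family reads (left) and for 9 of the shared sites where the family held the highest shares of all chimeric reads (right), with the control-injected library (C) above the mimic-injected library (M). miR-16-5p holds 92.2% and 88.4% of the family's reads on Gnas and 79.8% and 77.1% on Ckm, whereas the Septin2 site is led by miR-15a-5p.

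Gene lists were then compared with the reads of other miRNAs. The lists were chosen with earlier results of these data known, so their shares are descriptions and no independent support. Matrix genes took 9.88% of the family's reads in control-injected muscle (9.17 to 10.6%) and 8.97% in mimic-injected muscle (8.29 to 9.68%), against 4.27% and 3.56% for all other miRNAs. Of the 30 genes of the list 26 had a family read in control-injected and 20 in mimic-injected muscle, and 13 and 14 had at least 3. Sparc, a collagen-binding matrix protein, had 78.7 and 82.2 family reads, and Col5a1, a fibrillar collagen chain, 32.9 and 38.2. Without its highest gene the list still held 8.20% and 7.53%. miR-103-3p and miR-107-3p together held 8.51% (5.47 to 12.3%) and 6.51% (4.12 to 10.1%) at these genes, so the family's share lay above that of all other miRNAs, while its interval overlapped that of the miRNAs with the shifted seed. The miRNAs with the seed of miR-17-5p held 1.45% and 0.910%. Of the 142 background miRNAs taken singly, 17 in the control and 15 in the mimic had a higher share at this list than the family, which lay inside their 5th to 95th percentile (0.218 to 14.9% in the control).

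Sarcomere genes showed the reverse. They took 2.06% of family reads in control-injected muscle (1.72 to 2.42%) and 2.59% in mimic-injected muscle (2.23 to 3.01%), against 20.4% and 23.3% for all other miRNAs. Much of that gap remained when miR-1a-3p, miR-206-3p, miR-133a-3p and miR-133b-3p, the muscle miRNAs, were left out of the comparison, with 12.5% and 14.7%. Of the background miRNAs, 132 in control-injected and 133 in mimic-injected muscle had a higher share at this list than the family. Titin, Ttn, the giant elastic protein of the sarcomere, had the most family reads of the list, 47.1 in control-injected and 76.3 in mimic-injected muscle, but the family made up 0.269% and 0.324% of all its chimeric reads. Actn2, which encodes a Z-disc actinin, had 9.63 and 11.2, 1.22% and 1.44%.

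Chaperone genes took 3.07% of family reads in control-injected and 3.03% in mimic-injected muscle, against 0.636% and 0.591% for other miRNAs, and Hspa8 alone made the difference. Without Hspa8 the list held 0.245% and 0.244%. The list of long noncoding RNAs took 6.56% and 6.48% against 2.24% and 2.47%, with H19 and Malat1 holding most of it. Without H19 the list held 2.12% and 2.01% of family reads. The other miRNAs without the muscle miRNAs held 3.66% and 4.20% with H19 kept, so these 2 pairs of values are not alike. H19 held most chimeric reads of all miRNAs on the list, 4576 of 5498 in the control and 5627 of 6657 in the mimic. The energy metabolism list, at 2.99% and 2.74%, lay close to the 2.88% and 2.80% of other miRNAs, and held 1.67% and 1.11% without Aldoa. Calcium genes held 1.89% and 2.33% against 1.28% and 1.29%, with Gnas and Arhgdia, which had 28.3 and 36.8 family reads, in the lead, and without Gnas the list held 0.722% and 0.841%.

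Cell cycle and survival genes, which the family is best known for, took a small part of its reads in this muscle. The list of 20 genes held 0.846% of family reads in control-injected muscle (0.635 to 1.09%) and 0.478% in mimic-injected muscle (0.320 to 0.667%), against 0.228% and 0.193% for other miRNAs. Without Btg2 the list held 0.507% and 0.280%. A family read was found on 9 of the 20 genes in the control and on 7 in the mimic. Btg2, an antiproliferative gene, had 22.2 and 13.0 family reads. Ccnd2, cyclin D2, had 8.11 and 8.56, and Ccnd1, cyclin D1, 6.19 and 2.54. Cdca4 had 3.76 and 3.71, which was 79.9% and 82.3% of its few chimeric reads. No chimeric read of any miRNA was listed on Bcl2, Ccne1 or Chek1 in either library, 3 genes named after their values were seen.

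The list of growth factor and insulin signalling genes took 0.676% of family reads in control-injected and 0.384% in mimic-injected muscle, against 0.228% and 0.203%. The other miRNAs without the muscle miRNAs held 0.265% and 0.250%, the latter within the family's interval in the mimic (0.246 to 0.560%). Without its highest gene in each library the list held 0.563% and 0.285% of family reads, while the values of the other miRNAs kept that gene. The miRNAs with the miR-17-5p seed held 0.0938% and 0.232%. Irs2, an insulin receptor substrate, had 7.0 and 4.06 family reads. Pik3r1, the regulatory subunit of PI3 kinase, had 7.40 family reads in the control and none listed in the mimic, and Vegfa, the vascular growth factor, had 2.87 and 6.50. These counts are too small to order the libraries gene by gene. Genes of TGF-beta, activin and Wnt signalling took 0.467% and 0.370% against 0.208% and 0.196%, led by Smad7 with 11.8 and 10.1 family reads. That difference was not stable. The other miRNAs without the muscle miRNAs held 0.296% and 0.283%, within the family's interval in the mimic (0.234 to 0.541%). Without Smad7 the list held 0.287% and 0.216% of family reads, while the values of the other miRNAs kept Smad7. Genes of the miRNA pathway took 0.136% and 0.266%, near the 0.161% and 0.174% of other miRNAs, and 0.0607% and 0.180% without Tnrc6c.

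Markers of cell types that whole plantaris can hold were read in the same way. The 12 macrophage markers held 1.196% of family reads in control-injected muscle (0.944 to 1.49%) and 1.25% in mimic-injected muscle (1.005 to 1.56%), against 0.0702% and 0.0688% for other miRNAs, and the family made up 33.0% of all control chimeric reads on them. Its reads there were on C1qc and C1qb for the most part, and 7 of the 12 markers had no family read in the control. Without C1qc the list held 0.561% and 0.512%. At these markers miR-103-3p with miR-107-3p held 0.906% (0.218 to 3.05%) and 1.01% (0.207 to 2.89%), intervals that held the family's shares. The miRNAs with the miR-17-5p seed held none. Fibroblast markers, which share Col1a1, Col3a1, Postn, Dcn and Lum with the matrix list, held 5.31% and 4.81% against 1.74% and 1.48%. There miR-103-3p with miR-107-3p held more than the family, 7.18% (4.34 to 10.6%) and 7.67% (4.92 to 11.3%). The miRNAs with the miR-17-5p seed held less, 0.479% and 0.423%. Muscle fibre markers held 2.36% and 2.41% against 14.9% and 17.4%. The other marker lists had few family reads. Endothelial and mural markers held 0.0880% and 0.114% against 0.0986% and 0.0980%, with family reads on 3 and 4 of 11 genes, and blood markers held 0.0765% and 0.0654% against 0.00800% and 0.0102%. Nerve and Schwann cell markers held 0.0212% in the control and had no family read listed in the mimic. The part of cell type in the list results was not tested.

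**Figure D4:**
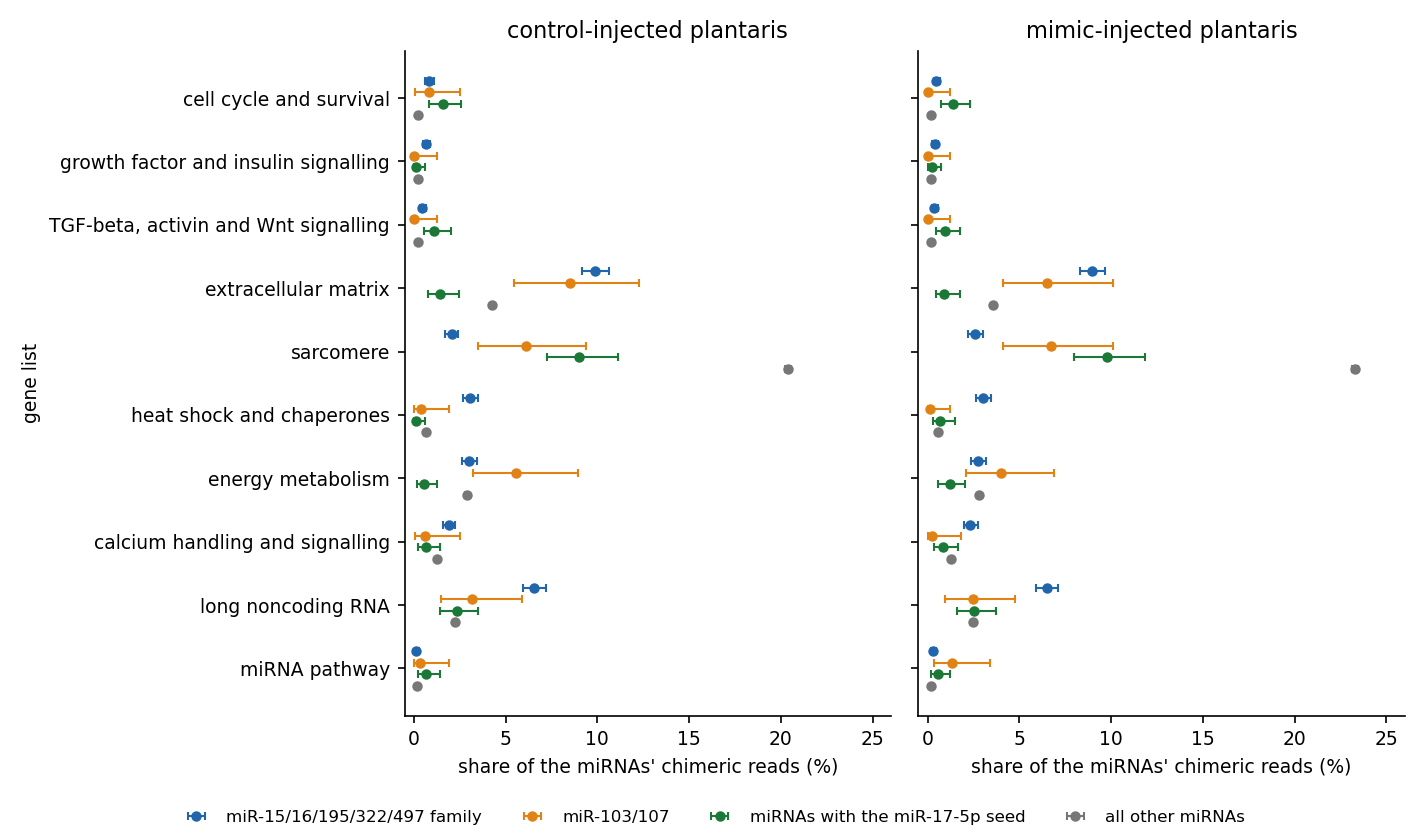
Points give the share (%) of chimeric reads at the genes of each of 10 lists, for the family, for miR-103-3p with miR-107-3p, for the miRNAs with the miR-17-5p seed and for all other miRNAs, in the control-injected (left) and the mimic-injected plantaris (right), with 95% intervals that cover counting error only. The family stands above all other miRNAs at matrix genes (9.88% against 4.27% in the control) and far below them at sarcomere genes (2.06% against 20.4%). The lists were chosen with earlier results of these data known.

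The letters that pair with the seed, TGCTGCT, were counted in the transcripts of the target genes. They follow from the seed that defines the members, while the gene groups below were set by chimeric reads and not by transcript letters. A genome of the build of the peaks was not used here, so the letters were counted in whole coding sequences and 3′ UTRs of the longest protein-coding transcript of each gene name, on the RNA strand, and not within the peaks. The match overlaps itself in CTG repeats, and each match was counted. The match to the seed of miR-206-3p, ACATTCC, was counted for contrast.

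Genes with at least 3 family reads in each library, 233 of them with a transcript, had 0.504 family matches per kb of coding sequence, and 66.95% had at least 1. The 27 genes among them where the family also held over 50% of all chimeric reads in each library had 1.03 per kb, and 74.1% had at least 1. The 2052 genes with at least 3 chimeric reads in each library and no family read had 0.230 per kb, and 29.2% had at least 1. Over all 22594 coding genes the value was 0.317 per kb, with 30.3% of genes holding a match. The density followed the family reads.

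The same order was found in the 3′ UTR, with 0.889, 0.405 and 0.168 matches per kb in the 3 groups and 0.208 over all coding genes. The miR-206-3p match did not follow it, but the choice of the groups bears on this contrast. In the 27 genes all other miRNAs, miR-206-3p among them, could hold only under 50% of the reads. The contrast is therefore not independent of the grouping. In coding sequence the miR-206-3p match had 0.0252 per kb in the 27 genes, 0.0481 in the 233 and 0.0753 in the 2052, with 0.0674 over all coding genes. In the 3′ UTR it had 0.0741, 0.0906 and 0.0950, with 0.0784 over all coding genes. The median coding sequence was 1221, 1515 and 1464 nt in the 3 groups, and the groups were not matched on length or base composition. These are descriptions, and a match is not shown to be the place of binding.

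**Figure D5:**
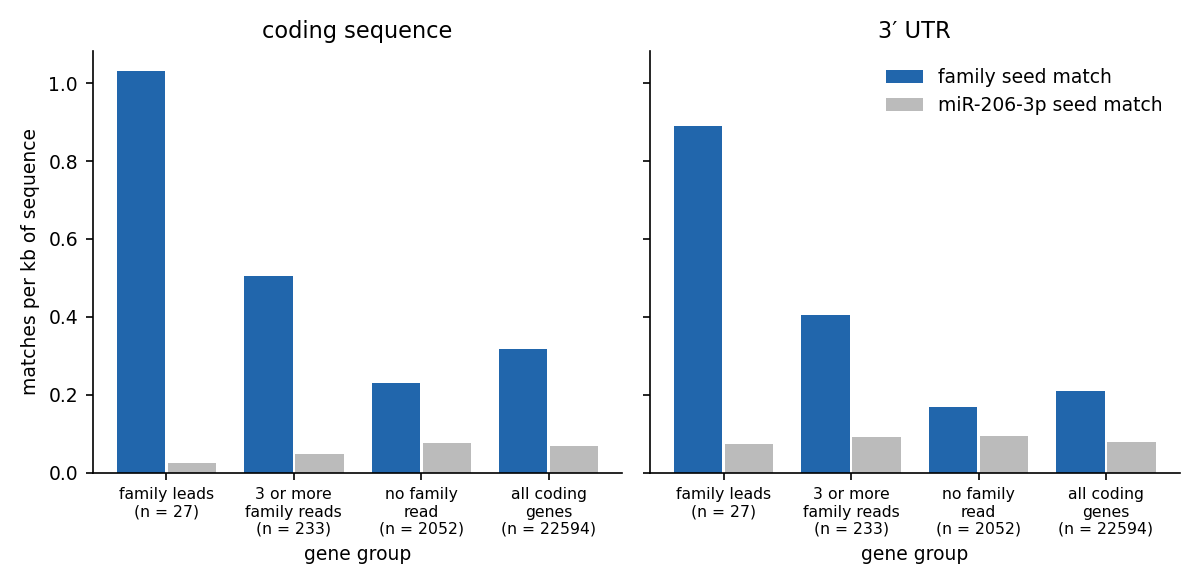
Bars give the number of seed matches per kb in coding sequence (left) and in 3′ UTR (right) for genes where the family led, genes with 3 or more family reads in each library (which include the first group), genes with no family read, and all coding genes. The family match falls from 1.03 to 0.504 to 0.230 per kb of coding sequence over the first 3 groups, and the miR-206-3p match lies at or below 0.0950 per kb in every group.

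Among the named genes, Hspa8 had 3 matches in its coding sequence, Col1a2 had 7, C1qc had 2, and Vim and Plagl1 had none in coding sequence or 3′ UTR. The matches of Hspa8 and C1qc are shown because the family held most of the reads on these 2 genes and their letters lie in coding sequence. They are examples, since 20 of the 27 genes led by the family had a match there. Positions count from the first base of the start codon in the GENCODE transcript, the match is in capitals, and 10 bases are given on each side. A longer run of capitals holds 2 overlapping matches.
Hspa8, coding bases 521 to 550: atgaaccaacTGCTGCTGCTattgcttacg
Hspa8, coding bases 1162 to 1188: gttcaggattTGCTGCTcttggatgtc
C1qc, coding bases 34 to 63: ggactttgccTGCTGCTGCTgtttcttctg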

How the data were processed

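The authors pulled down Ago2 from 1 control-injected and 1 mimic-injected plantaris after 10 days of MOV. The deposited values are estimated counts, the chimeric reads of 1 miRNA in 1 peak, not scaled to depth by the authors. Of the values under 1, 69.9% in the control and 68.3% in the mimic were whole-number fractions with a denominator up to 100, and how the fractions arose was not stated. The submitters' processing notes name mm10, cutadapt 3.2, UMI-tools 1.1.1, STAR 2.7.7a, Bowtie 1.2.3 and HOMER 4.11. The methods name mm9, but the coordinates lie in mm10 (GRCm38), in which they are given, counted from 1. The methods also describe amplification with a miR-1 primer, so shares describe these files and not miRNA abundance.

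Lines of the 6 members were summed per peak, and a peak was assigned to the same-strand gene it overlapped most among 49993 RefSeq spans (GRCm38.p6). Strand came from GRCm38 tables for 28096 genes and by name from GENCODE for 8338, and genes of unknown strand (13559, Rn18s-rs5 among them) were used where no gene of known strand overlapped. Exons of GRCm38 were not used here. Shares have Clopper-Pearson, reads Poisson, ratios conditional binomial and medians order-statistic intervals (95%), on reads rounded to whole numbers. They do not hold variation between animals or library preparations. The functions were tested on simulated data. Python 3.11.15, pandas 2.3.3, NumPy 2.4.6, SciPy 1.17.1 and Matplotlib 3.10.9 were used.

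Named genes were the 10 with the most family reads in each library, the 10 shared sites of at least 10 family reads in each library with the highest family share, the 3 largest rises and 3 largest falls among shared sites with a mean of at least 10, and up to 4 examples from each of 10 gene lists and 6 marker lists. The members and lists were chosen with earlier results of these data known. The alternatives changed the minimum per line or site, the scaling, the overlap, the strand rule, the loci and the members included. A few genes that these rules name are not reported here.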

Additional observations from a re-analysis of the deposited data

How the results depend on the processing

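No paired analysis was possible because a group never held more than 1 library, so that no replicate could be left out either. Scaling moved the ratio of family reads, whose interval held 1, below 1, and moved miR-195a-5p from 1.11 (1.01 to 1.22) to 0.997 (0.910 to 1.09). Joining split peaks turned the Bgn site from a ratio of 3.67 (1.78 to 7.68) to 40.9 and 38.8 reads. The share of all chimeric reads, 2.81% in control-injected and 2.54% in mimic-injected muscle, became 2.55% and 2.30% with lines of at least 1 read, 1.83% and 1.62% with at least 3, 3.17% and 2.85% without the mitochondrial chromosome and the ribosomal RNA locus, 1.46% and 1.35% without miR-16-5p, and 4.72% and 4.45% as a share of lines, lower in the mimic each time. The miR-16-5p share of the family rose to 51.3% and 50.5% with lines of at least 1 read and to 60.4% and 58.7% with at least 3. The ratio of family reads was 0.904 after division by library totals and 0.898 by totals outside the mitochondrial chromosome and ribosomal RNA. It was 1.01 with either line minimum and 1.03 without miR-16-5p. The site overlap was 31.3% at 50% reciprocal overlap and 59.0% for sites of at least 3 family reads. The median log2 ratio of shared sites was −0.13 after division by library totals.

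Target genes numbered 372, 394 and 217 (control, mimic, both) at sites of at least 3 family reads, and 1071 in the mimic and 566 in both at sites of at least 1. The matrix list held 13.5% and 12.2% at sites of at least 3 family reads, 11.0% and 9.97% without the mitochondrial chromosome and ribosomal RNA, and 8.20% and 7.53% without its highest gene. The sarcomere list held 1.46% and 1.85% at sites of at least 3 reads, and 1.34% and 1.43% without Ttn. The median family share of a site was 54.8% and 61.8% at sites of at least 10 family reads. The cause of these shifts was not tested, beyond the fewer reads, sites or genes that each setting keeps. Joined peaks, the comparison without the muscle miRNAs and lists without their highest gene were chosen after seeing the data. Seed matches within peaks were not run because a genome of the build of the peaks was not used here. Depth limits single genes, since most family sites hold under 3 reads, and 1 library in each group limits every comparison between conditions.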

Other observations

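The 3p arms made from the loci of the members were nearly absent from the chimeric reads, with 53.4 reads on 78 lines in control-injected and 50.9 reads on 77 lines in mimic-injected muscle, against 6536 and 6589 for the members. miR-322-3p had the most of them, 24.5 and 19.6 reads. Of the other RefSeq names with the same seed, miR-195b had 3 lines and 2.21 reads in the mimic and none in the control, and miR-6342, miR-6353 and miR-6419 were not listed in either library. miR-503-5p, which is made from the same transcript as miR-322-5p, had 280.4 reads in control-injected and 199 in mimic-injected muscle. miR-103-3p had 245 and 262 reads, and miR-107-3p 39.7 and 37.7.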
